A study of Mus musculus with 24 samples.

Results

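Cytosolic double-stranded RNA sensors are described here by 7 genes of the deposited count table, chosen by symbol out of 47937 gene entries. They are *Ddx58* (also *Rigi*, encoding RIG-I), *Ifih1* (MDA5), *Dhx58* (LGP2), *Mavs*, *Trim25*, *Eif2ak2* (PKR) and *Zbp1*. All 7 symbols had 1 Ensembl entry and all 7 passed the filter on low counts, which left 18565 genes. The RNA came from mouse embryonic fibroblast (MEF) lines that lack increasing numbers of the enzymes that methylate lysine 9 of histone H3 (H3K9 KMTs), with 3 biological replicates in each of 8 conditions. The question is how RNA of the sensors varies as H3K9 KMTs are removed.

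All 8 conditions derive from 1 clone of MEFs, *E1c*, with floxed *Eset1* alleles and a Cre recombinase that 4-hydroxytamoxifen (4-OHT) activates. WT is *E1c* without 4-OHT, and *E1* is the same line after 4-OHT, which removes floxed exons of *Eset1*. *E2* is an *Eset2*-mutant clone without 4-OHT, and *E1E2* is that clone after 4-OHT. *E1 S1S2* lacks *Eset1*, *Suv39h1* and *Suv39h2*, and *6KO1* was made from its clone by mutating *Eset2*, *G9a* and *Glp*. *E1E2 G9Gl* was made from the *Eset2* clone by mutating *G9a* and *Glp*, and *6KO2* from that clone by mutating *Suv39h1* and *Suv39h2*. All mutants except *E2* received 1 µM 4-OHT, and genes other than *Eset1* carry frameshift mutations made with CRISPR/Cas9. Each genotype is 1 clone, so the effect of a mutation and of the clone that carries it cannot be told apart. WT and *E2* differ from the other conditions in 4-OHT as well. The paper also describes putting an inducible Cre construct with puromycin resistance back in after CRISPR/Cas9, followed by puromycin selection. Lines made with CRISPR/Cas9 may differ from WT and *E1* in this too, and it cannot be told apart from their mutations. The labels' treatment field does not separate the samples, so the titles, which mark WT and *E2* as controls, were followed.

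RIG-I and MDA5 are helicases that bind double-stranded RNA in the cytosol, RIG-I preferring ends with a 5′ triphosphate and MDA5 long duplexes. Both signal through MAVS on the mitochondrial surface to the transcription factors that induce type I interferon. LGP2 is a related helicase without the signalling domain, TRIM25 is a ubiquitin ligase linked to RIG-I signalling, PKR is a kinase that halts translation, and ZBP1 binds Z-form nucleic acid and can start necroptosis. Most of these genes are themselves induced by interferon, *Mavs* being the usual exception.

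The gene positions below are those of GRCm38 (GENCODE M21). *Ddx58* (ENSMUSG00000040296) lies at chr4:40203773-40239828 on the minus strand, *Ifih1* (ENSMUSG00000026896) at chr2:62595798-62646255 on the minus strand and *Dhx58* (ENSMUSG00000017830) at chr11:100694884-100704271 on the minus strand. *Mavs* (ENSMUSG00000037523) lies at chr2:131234063-131248025 on the plus strand, and *Trim25* (ENSMUSG00000000275) at chr11:88999376-89020293 on the plus strand. *Eif2ak2* (ENSMUSG00000024079) lies at chr17:78852564-78882573 and *Zbp1* (ENSMUSG00000027514) at chr2:173206612-173218923, both on the minus strand. Counts cover the exons of each gene, and no isoform was told apart.

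Between 19541909 and 31489070 counts fell on genes in each library. The log2 fold change of *Setdb1* (*Eset1*) against WT was -0.57 in both *E1* and *6KO1*, -0.58 in *E1 S1S2*, -0.31 in both *E2* and *E1E2*, -0.95 in *6KO2* and -1.19 in *E1E2 G9Gl*. *Suv39h2* is mutated in *6KO2* (-0.96), *6KO1* (0.14) and *E1 S1S2* (0.76), and it was at -1.47 in *E1E2 G9Gl*, where it is not mutated. Counts over a whole gene do not check a frameshift or the loss of single exons, so the labels were followed. WT replicate 2 stood apart from the other WT libraries, with 3.01% of its gene counts on mitochondrial genes against 1.81% to 1.86%. This share was 2.80% to 3.16% in *6KO1*, and the highest library of any other mutant was at 2.42%, in *E1*. Its part in the sensor levels of *6KO1* was not tested. Within *E2*, replicate 2 was the lowest library for most sensors, and within *6KO2* replicate 2 was the lowest and replicate 3 the highest for most. Of 10 fibroblast markers, 9 were tested against WT and *Lum* was below the filter. In *6KO1* 5 of the 9 were called lower (10.2% of all genes were, list median -1.30), among them *Thy1* (-8.87), *Pdgfra* (-5.35), *Col1a1* (-1.76) and *Col1a2* (-1.48). In *6KO2* 2 were called lower (5.39% of all genes), *Thy1* (-6.68) and *Col1a2* (-1.41). In *E1 S1S2* 3 were called lower (5.11% of all genes), *Thy1* (-7.66) and *Col1a2* (-2.49) among them, in *E2* 2 (3.21%), *Thy1* (-2.87) and *Pdgfra* (-1.27), in *E1E2* 2 (3.22%), *Thy1* (-2.01) among them, and in *E1* 1 (1.99%). In *E1E2 G9Gl* 2 were called higher (16.8% of all genes), *Thy1* (1.05) among them, and *Pdgfra* (-3.23) was the 1 called lower (8.41%). *Thy1* was at 0 to 0.0347 CPM in *6KO1*, 0 to 0.163 in *6KO2* and 0 to 0.0710 in *E1 S1S2*, so the sizes of its falls there are poorly determined. *Vim* and *Fn1* were not called in *6KO1*, *6KO2* or *E1E2 G9Gl*.

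A short motif shared by interferon-response elements was looked for in the promoters, because most of the sensors are interferon-induced. RefSeq windows of GRCm38.p6, from 250 bases before to 50 after the start, were found for 5 of the 7 genes, *Ddx58*, *Ifih1*, *Mavs*, *Eif2ak2* and *Trim25*, and not for *Dhx58* and *Zbp1*. The motif searched was GAAA, any 2 bases and GAAA again, which reads TTTC, any 2 bases and TTTC on the other strand. It occurred once each in *Ddx58*, *Ifih1* and *Eif2ak2*, in each case just after the start. It occurred in neither *Mavs* nor *Trim25*. Of all 32851 windows, 3.44% hold it on either strand. The 30 bases around each match are shown 5′ to 3′ on the strand of the gene, with the matched letters in capitals.
*Ddx58*, chr4:40239804-40239833, minus strand: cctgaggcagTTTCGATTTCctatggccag
*Ifih1*, chr2:62646206-62646235, minus strand: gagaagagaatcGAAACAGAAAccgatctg
*Eif2ak2*, chr17:78882535-78882564, minus strand: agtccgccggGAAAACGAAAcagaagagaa
The match begins 3 bases into the transcript in *Ddx58*, 33 in *Ifih1* and 19 in *Eif2ak2*, counting the start as 1. Among 18 other interferon-stimulated genes with a window, 6 (33.3%) hold it. A match describes the sequence only.

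Levels between genes were compared as CPM (counts relative to the library's total on genes, after TMM scaling) divided by the exon length in kilobases. In WT, *Eif2ak2* was the highest of the 7 at 14.9 ± 0.736 (SD, n = 3), followed by *Mavs* at 9.12 ± 0.550 and *Trim25* at 8.94 ± 1.05. *Ddx58* stood at 3.56 ± 0.246, *Ifih1* at 2.35 ± 0.127, *Dhx58* at 0.940 ± 0.0783 and *Zbp1* at 0.110 ± 0.0111. In *6KO1* the per-kilobase level of *Ifih1* was 25.9 ± 1.03 and that of *Ddx58* 24.1 ± 0.755, above *Trim25* (21.3 ± 1.57) and below *Eif2ak2* (31.0 ± 0.877). The adaptor *Mavs* was at 9.98 ± 0.262 in *6KO1*, so both receptors passed from below to above it. All further levels are CPM within 1 gene. A gene was called where its log2 fold change was at least 1 in size and its Benjamini-Hochberg adjusted p at most 0.01.

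**Figure D1:**
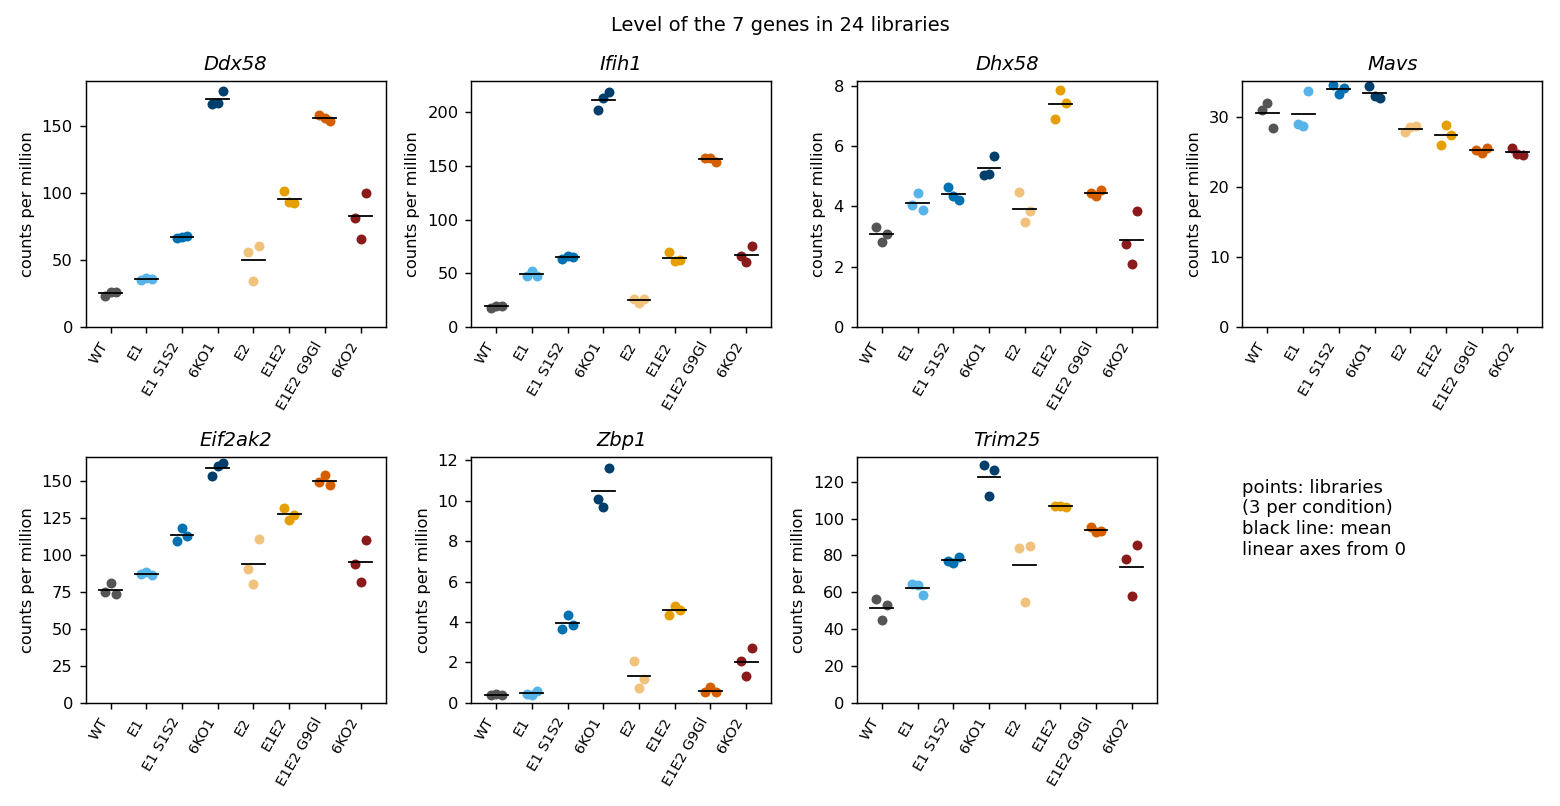
Each panel plots the CPM of 1 gene (linear axis from 0) by condition, with 1 point per library, 3 per condition, and a black line at the mean. *Ifih1* lies between 203 and 219 in *6KO1* against 18.0 to 19.9 in WT, *Zbp1* is at 0.511 to 0.776 in *E1E2 G9Gl*, and *Mavs* stays between 24.5 and 34.6 in all libraries.

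The receptor genes rose in most mutants. *Ifih1* was at 18.0, 19.7 and 19.9 CPM in the WT libraries and at 47.4, 52.3 and 47.4 in *E1*. The *E1* libraries were all above WT, a 2.55-fold difference (log2 fold change 1.35, SE 0.0762, edgeR adjusted p = 3.09e-12). *Ifih1* was at 63.5, 66.1 and 64.7 CPM in *E1 S1S2* and at 203, 213 and 219 in *6KO1*. The *6KO1* libraries were all above those of every other condition (against WT, log2 fold change 3.46, SE 0.0787, edgeR adjusted p = 1.65e-20). In the second series *Ifih1* was at 25.6, 22.3 and 26.0 CPM in *E2* and at 69.7, 61.8 and 62.6 in *E1E2*. It was at 157, 158 and 154 CPM in *E1E2 G9Gl* and at 66.0, 60.7 and 75.3 in *6KO2*. The order of *Ifih1* levels was therefore *6KO1*, *E1E2 G9Gl*, then *6KO2*, *E1 S1S2* and *E1E2*, whose libraries overlapped from neighbour to neighbour, then *E1*, *E2* and WT without overlap.

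*Ddx58*, the gene of RIG-I, was at 23.1, 25.9 and 26.3 CPM in WT and at 35.1, 36.2 and 35.9 in *E1*. All *E1* libraries were above WT, yet the log2 fold change of 0.51 (SE 0.144, edgeR adjusted p = 0.0128) was not called. *Ddx58* was at 66.0, 66.9 and 67.9 CPM in *E1 S1S2*, and at 166, 167 and 176 in *6KO1*. In *6KO1* the log2 fold change against WT was 2.76 (SE 0.146, edgeR adjusted p = 6.75e-14). *Ddx58* was at 55.8, 34.3 and 60.4 CPM in *E2* and at 101, 93.4 and 92.4 in *E1E2*. It was at 158, 156 and 153 CPM in *E1E2 G9Gl* and at 81.5, 65.4 and 100 in *6KO2*, a condition whose libraries overlapped those of *E1E2* and *E1 S1S2*. The *E2* difference from WT (log2 fold change 0.99, edgeR adjusted p = 8.58e-06) lay just under the 2-fold minimum, and without *E2* replicate 2 it was 1.21 and called.

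*Dhx58*, which encodes LGP2, was low, with 78 to 79 counts per WT library. It was at 3.32, 2.81 and 3.09 CPM in WT and was highest in *E1E2*, at 6.89, 7.87 and 7.43. This was the only condition in which *Dhx58* was called against WT (log2 fold change 1.27, SE 0.141, edgeR adjusted p = 1.44e-07). It was at 5.03, 5.09 and 5.68 CPM in *6KO1* (log2 fold change 0.78, edgeR adjusted p = 4.17e-05), above WT but under the 2-fold minimum. In *6KO2* it was at 2.74, 2.08 and 3.84 CPM, on both sides of WT. *Dhx58* shares 141 exon bases with *Dhx58os* on the opposite strand, which had 0 to 8 counts per library.

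*Mavs*, the adaptor of both receptors, moved little. Its mean ranged from 81.8% of the WT level in *6KO2* to 112% in *E1 S1S2*, and it was called in none of the 13 comparisons by edgeR. In WT it was at 31.0, 32.02 and 28.5 CPM, in *6KO1* at 34.4, 33.0 and 32.7, and in *6KO2* at 25.6, 24.7 and 24.5. All *E1E2 G9Gl* and all *6KO2* libraries lay below WT, with log2 fold changes of -0.27 (SE 0.0632, edgeR adjusted p = 0.000542) and -0.29 (SE 0.063, edgeR adjusted p = 0.000357), both passing the adjusted p and far from the 2-fold minimum.

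*Trim25*, the ubiquitin ligase, was at 56.5, 44.8 and 53.1 CPM in WT, and at 129, 112 and 126 in *6KO1* (log2 fold change 1.25, SE 0.131, edgeR adjusted p = 1.05e-08). In *E1E2* it was at 107, 107 and 106 CPM (log2 fold change 1.05, edgeR adjusted p = 6.95e-07), and without WT replicate 2 this value was 0.96 and no longer called. *Trim25* was at 95.5, 92.7 and 93.4 CPM in *E1E2 G9Gl* and at 77.8, 58.0 and 85.8 in *6KO2*, both above WT and neither called.

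*Eif2ak2*, which encodes PKR, was at 74.7, 80.7 and 73.7 CPM in WT. It was at 154, 160 and 162 CPM in *6KO1*, the only condition in which it was called (log2 fold change 1.05, SE 0.0913, edgeR adjusted p = 4.76e-10). In *E1E2 G9Gl* it was at 149, 154 and 148 CPM, overlapping *6KO1*, with a log2 fold change of 0.98 that DESeq2 gave as 1.01 and called. There it was also called with RLE factors (1.01), among genes with a mean normalized count above 100 (1.05), without WT replicate 2 (1.02) and without *E1E2 G9Gl* replicate 3 (1.00). In *6KO2* it was at 93.7, 81.4 and 110 CPM, overlapping *E2* and *E1 S1S2*. *Eif2ak2* shares 174 exon bases with *Gm26637* on the opposite strand, which had 8 to 70 counts per library, and whether the counting used strand is not given in the sources used here.

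*Zbp1*, the sensor of Z-form nucleic acid, had the widest range and an order of its own. It had 9, 12 and 9 counts in the WT libraries, 11, 10 and 16 in *E1* and 118, 122 and 108 in *E1 S1S2*. In *6KO1* it had 291, 282 and 301 counts, or 10.1, 9.69 and 11.6 CPM against 0.379, 0.433 and 0.357 in WT. This 26.5-fold difference (log2 fold change 4.73, SE 0.266, edgeR adjusted p = 2.12e-13) was the largest of the 7 genes in *6KO1*. *Zbp1* had 44, 21 and 25 counts in *E2* and 112, 110 and 112 in *E1E2*. It had only 12, 17 and 10 counts in *E1E2 G9Gl*, where its log2 fold change against WT was 0.61 (SE 0.411, edgeR adjusted p = 0.193). In *6KO2* it had 51, 29 and 62 counts. All *E1E2 G9Gl* libraries lay above WT and the *E1* libraries overlapped both, and with at most 17 counts per library no difference from WT was detectable in either at this depth.

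**Figure D2:**
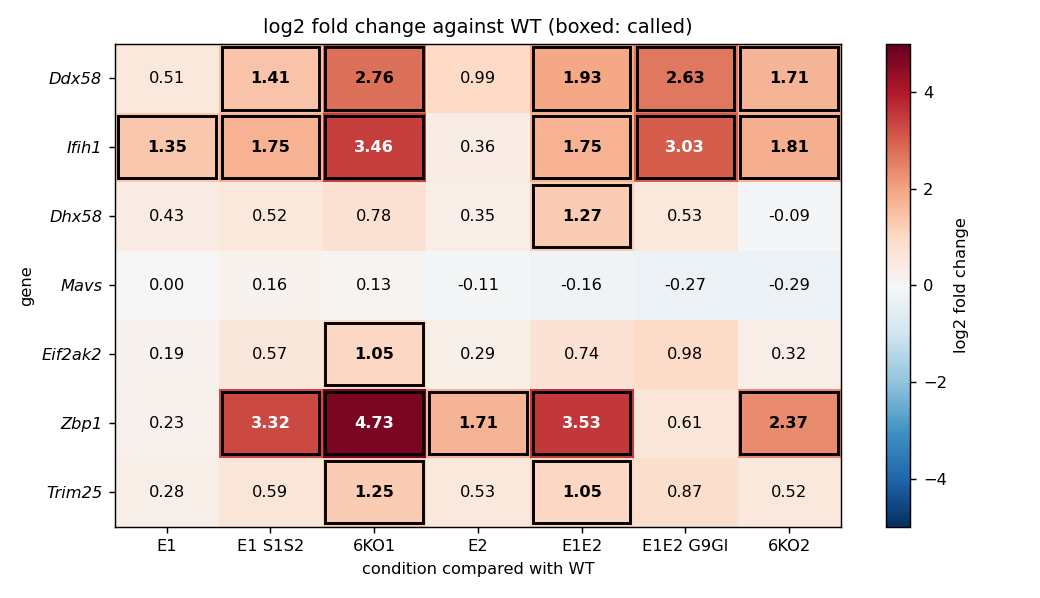
Colour and number give the log2 fold change of each gene (rows) in each mutant (columns) against the 3 WT libraries, and boxes mark values called by edgeR. *Ifih1* is boxed in every column but *E2*, *Mavs* in none, and *Zbp1* is 4.73 in *6KO1* and 0.61 in *E1E2 G9Gl*.

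Against WT, 5 of the 7 genes were called higher in *6KO1* (20.6% of all genes tested were called higher and 10.2% lower), and 5 in *E1E2* (5.51% and 3.22% of all). In *E1E2 G9Gl*, 2 were called higher (16.8% and 8.41% of all), in *6KO2* 3 (15.3% and 5.39%) and in *E1 S1S2* 3 (6.65% and 5.11%). In *E1* the 1 called higher was *Ifih1* (2.27% and 1.99% of all) and in *E2* it was *Zbp1* (2.9% and 3.21%). In a fit of the *E2* and WT libraries alone, *Zbp1* was at 1.75 with an edgeR adjusted p of 0.0194 and was not called, while *Ddx58* (1.02) was. None of the 7 was called lower against WT by edgeR, where a count of 1, *Mavs*, was lower at the adjusted p alone in each of *E1E2 G9Gl* (28.3% of all genes) and *6KO2* (25% of all genes). The 3 libraries lay entirely above WT for 7 of 7 genes in *6KO1* (39.1% of all genes), 7 in *E1 S1S2* (26.5%) and 6 in *E1E2* (24.2%). They did so for 6 in *E1E2 G9Gl* (35.4%), 5 in *6KO2* (34.7%), 5 in *E1* (14.3%) and 4 in *E2* (17.6%). *Mavs* was the 1 gene entirely below WT in *E1E2 G9Gl* (32.1% of all genes) and in *6KO2* (28.7%). Without WT replicate 2, the genes called higher numbered 2 in *E2*, 4 in *E1E2* and 3 in *E1E2 G9Gl*, and the counts in *6KO1*, *6KO2*, *E1 S1S2* and *E1* were as above. Without WT replicate 3, or without *E2* replicate 2, the number in *E2* was 2 as well, *Ddx58* joining *Zbp1*.

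The median log2 fold change of the 7 was 1.25 in *6KO1* (0.06 over all genes), 1.27 in *E1E2* (-0.0024) and 0.87 in *E1E2 G9Gl* (0.0088). In *6KO2* it was 0.52 (0.04), in *E1 S1S2* 0.59 (-0.0048), in *E2* 0.36 (-0.013) and in *E1* 0.28 (-0.0053). These 7 comparisons share the WT libraries. In bulk RNA, a higher level in each cell and a larger share of cells with the RNA cannot be told apart.

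*Ifih1* rose after 4-OHT, which removes *Eset1*, in both lines in which it could be compared. Between *E2* and *E1E2*, which are 1 clone without and with 4-OHT, *Ifih1* rose by a log2 fold change of 1.39 (SE 0.0752, edgeR adjusted p = 8.37e-12) and *Zbp1* by 1.82 (SE 0.237, edgeR adjusted p = 5.57e-06). These were 2 of the 7 genes called higher (2.32% of all genes were called higher and 0.657% lower). *Ddx58* (0.94), *Dhx58* (0.92), *Trim25* (0.52) and *Eif2ak2* (0.44) also lay above *E2* in all *E1E2* libraries and passed the adjusted p by edgeR, without reaching 2-fold. These 6 genes compare with 20.3% of all genes whose libraries lay entirely above. Without *E2* replicate 1, *Ddx58* (1.02) and *Dhx58* (1.02) were called too, which makes 4 of 7. The 4-OHT effect in the *Eset2* clone minus that in the parental line was 0.04 for *Ifih1* (SE 0.106, edgeR adjusted p = 0.881) and 1.59 for *Zbp1* (SE 0.494, edgeR adjusted p = 0.0309). For this difference 0 of the 7 genes were called, 2.01% of all genes being called higher and 1.41% lower. At an unadjusted p under 0.05 by edgeR, 3 of 7 passed (*Ddx58*, *Dhx58* and *Zbp1*), as did 26.3% of all genes, and DESeq2 also called 0. Without *E2* replicate 1, *Zbp1* was called in this test at 2.05.

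In *E1 S1S2* against *E1*, which differ in *Suv39h1* and *Suv39h2*, *Zbp1* was higher by a log2 fold change of 3.09 (SE 0.277, edgeR adjusted p = 4.35e-09), the 1 gene of 7 called (4.31% of all genes were called higher and 3.75% lower). *Ddx58* was at 0.91, *Ifih1* at 0.40 and *Eif2ak2* at 0.38 in this comparison, all passing the adjusted p only. In *6KO1* against *E1 S1S2*, which differ in *Eset2*, *G9a* and *Glp*, *Ifih1* was higher by 1.71, *Zbp1* by 1.41 and *Ddx58* by 1.34, which makes 3 of 7 called (16.3% of all genes were called higher and 5.02% lower). *Trim25* (0.67) and *Eif2ak2* (0.48) passed the adjusted p in that step, and *Dhx58* (0.26) and *Mavs* (-0.027) did not.

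In the second series *Zbp1* and the receptor genes went opposite ways at both later steps. From *E1E2* to *E1E2 G9Gl*, *Ifih1* rose by 1.27 (SE 0.0715, edgeR adjusted p = 2.79e-13), 1 of 7 called higher (14.8% of all genes). *Zbp1* fell by 2.92 on the log2 scale in the same step (SE 0.276, edgeR adjusted p = 2.94e-09), 1 of 7 called lower (6.78% of all genes). *Ddx58* was at 0.70 and *Dhx58* at -0.73, both passing the adjusted p only. From *E1E2 G9Gl* to *6KO2*, *Ifih1* fell by 1.22 (SE 0.0714, edgeR adjusted p = 1.46e-12; 9.12% of all genes were called lower) and *Zbp1* rose by 1.75 (SE 0.308, edgeR adjusted p = 4.22e-05; 7.19% were called higher). *Ddx58* (-0.92), *Eif2ak2* (-0.66) and *Dhx58* (-0.62) passed the adjusted p without reaching 2-fold. With *Ifih1* and *Trim25* (-0.35), these made 5 of 7 genes with all *6KO2* libraries below *E1E2 G9Gl* (33.2% of all genes). Without *6KO2* replicate 3, *Ddx58* was at -1.08 and called.

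**Figure D3:**
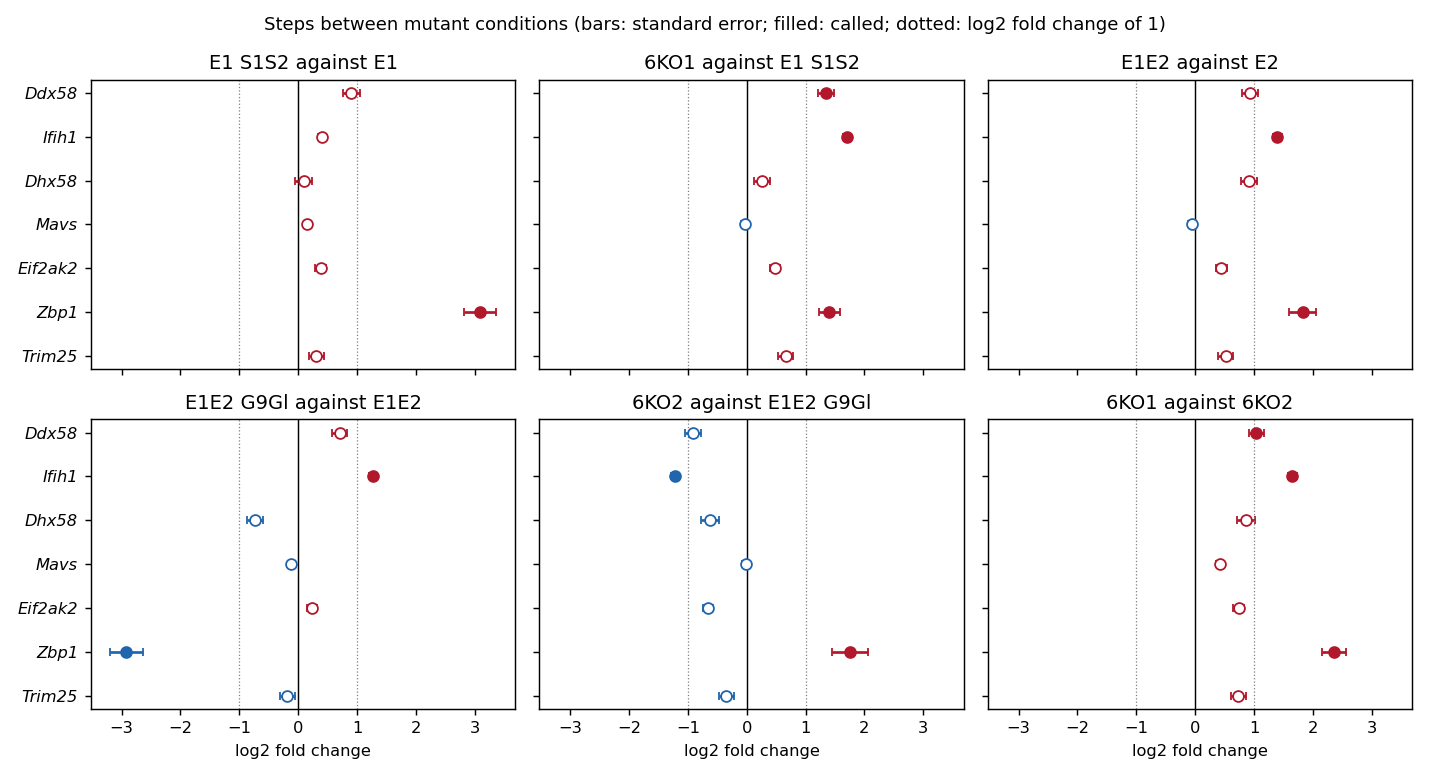
Each panel gives the log2 fold change of the 7 genes between 2 mutant conditions, 3 libraries each, with bars of 1 standard error, filled points where edgeR called the gene and dotted lines at a log2 fold change of 1 either way. *Zbp1* is at -2.92 and *Ifih1* at 1.27 from *E1E2* to *E1E2 G9Gl*, and they are at 1.75 and -1.22 from *E1E2 G9Gl* to *6KO2*.

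The lines *6KO1* and *6KO2*, which carry mutations in the same 6 genes made in another order, differed in the sensors. *Zbp1* was higher in *6KO1* than in *6KO2* by a log2 fold change of 2.36 (SE 0.207, edgeR adjusted p = 1.5e-09), *Ifih1* by 1.65 (SE 0.0717, edgeR adjusted p = 5.77e-15) and *Ddx58* by 1.04 (SE 0.135, edgeR adjusted p = 6.52e-07). These were 3 of 7 called higher (9.77% of all genes were called higher and 7.1% lower), and for all 7, *Mavs* included at 0.42, every *6KO1* library lay above every *6KO2* library, as it did for 35.3% of all genes. The *Ddx58* call rested on *6KO2* replicate 2, without which the value was 0.90.

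The *Suv39h1* and *Suv39h2* mutations are present on 2 backgrounds, and whether the difference they go with is the same was tested as an interaction. The effect on *E1E2 G9Gl* minus that on *E1* was -1.82 for *Ddx58* (SE 0.194, edgeR adjusted p = 4.72e-08), -1.62 for *Ifih1* (SE 0.101, edgeR adjusted p = 7.45e-12) and -1.04 for *Eif2ak2* (SE 0.128, edgeR adjusted p = 4.58e-07). These 3 of 7 were called lower (8.76% of all genes were called lower and 7.71% higher), and without *6KO2* replicate 2 *Eif2ak2* was at -0.94 and not called. *Dhx58* (-0.71) and *Trim25* (-0.66) passed the adjusted p only. *Zbp1*, higher with these mutations on both backgrounds, had a difference of -1.33 (SE 0.455, edgeR adjusted p = 0.0178) and was not called. It was called by DESeq2 (-1.38, adjusted p = 0.00879), by edgeR with no filter on low counts (-1.35, adjusted p = 0.0019) and without *6KO2* replicate 3 (-1.59).

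LTR elements, which include endogenous retroviruses and can give double-stranded RNA when both strands are transcribed, took 0.927% to 1.39% of counts in WT. Their share was 4.02% to 4.64% in *E1*, 3.59% to 3.79% in *E1 S1S2* and 7.49% to 7.55% in *6KO1*. In the second series the share was 2.66% to 3.39% (*E2*), 2.89% to 2.95% (*E1E2*), 7.10% to 7.39% (*E1E2 G9Gl*) and 5.06% to 5.40% (*6KO2*). The lines with the largest share, *6KO1* and *E1E2 G9Gl*, had the highest *Ifih1* and *Ddx58* levels, while *Zbp1* was highest in *6KO1* and near WT in *E1E2 G9Gl*. *E1* had a larger LTR share than *E1E2* and lower *Ddx58*, *Ifih1*, *Dhx58*, *Zbp1*, *Trim25* and *Eif2ak2* levels. LINE elements took 2.43% to 2.51% of counts in *E1E2 G9Gl* and 1.95% to 2.16% in *6KO1*, against 0.730% to 1.13% in WT. Satellite repeats took 0.173% to 0.188% in *6KO1*, against 0.0902% to 0.0963% in *6KO2* and 0.0444% to 0.0448% in *E1E2 G9Gl*. The counts do not tell whether any of this RNA is double-stranded, and its part in the sensor levels was not tested.

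**Figure D4:**
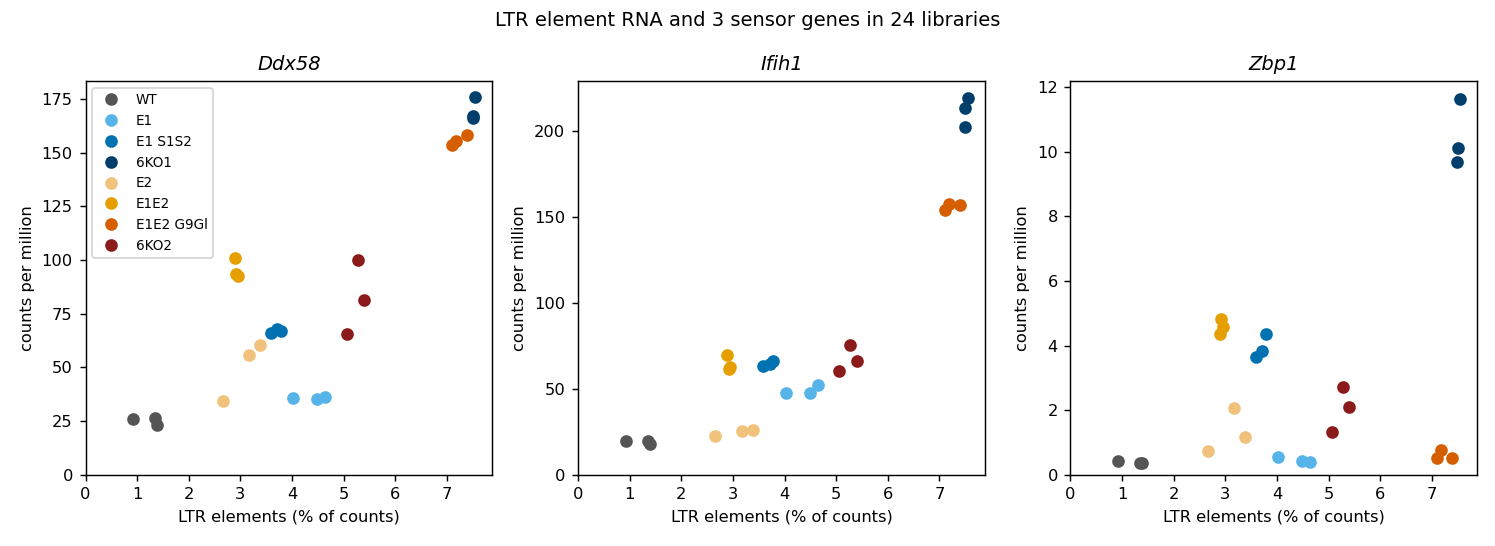
Each point is 1 of 24 libraries, with the share of its counts on LTR elements (x axis, percent) and the CPM of *Ddx58*, *Ifih1* or *Zbp1* (y axis, linear from 0), coloured by condition. *E1E2 G9Gl* and *6KO1* lie at the right, above 7% of counts. The *6KO1* points lie above those of *E1E2 G9Gl* for *Ddx58* (166 to 176 against 153 to 158) and *Ifih1* (203 to 219 against 154 to 158). They do so for *Zbp1* as well (9.69 to 11.6 against 0.511 to 0.776).

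Lists of pathway genes around the sensors are read against the shares of all genes given above, which for genes called higher against WT were 20.6% in *6KO1*, 16.8% in *E1E2 G9Gl*, 15.3% in *6KO2* and 5.51% in *E1E2*. Of 19 signalling proteins downstream of MAVS, 3 were called higher against WT in *6KO2*, a share near that of all genes, with a list median of 0.31, and 3 in *E1E2*, with a list median of 0.07. In *6KO1* and in *E1E2 G9Gl*, 1 was called higher and 1 lower, with list medians of 0.21 and 0.19. *Irf7*, the interferon regulatory factor that is itself interferon-induced, rose by 7.06 in *6KO1* and 5.56 in *E1E2 G9Gl* (log2 fold change, edgeR adjusted p = 6.73e-15 and 9.46e-13). *Ikbke*, a kinase of interferon regulatory factors, was called in *6KO2* (1.25) and *E1E2* (1.42), and *Rela*, a subunit of NF-κB, in *6KO2* (1.25). *Chuk* (0.36 in *6KO1*) was called in none of these lines. Of 26 regulators of RIG-I, MDA5 and MAVS tested, 4 were called higher and 1 lower in *6KO1*, and 4 and 1 in *6KO2*, shares no larger than or near those of all genes. *Ddx60*, a helicase linked to RIG-I, rose by 2.65 in *6KO2*, 5.02 in *E1E2 G9Gl* and 5.67 in *6KO1*. *Nlrc5*, a regulator of MHC class I genes, rose by 4.40, 6.94 and 7.10 in the same lines. *Ddx3x* was at -0.45, -0.76 and -0.84 there and was not called.

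Of 14 genes of the PKR and ADAR axis, *Adar*, which edits double-stranded RNA, was called higher in *6KO1* (1.69) and *E1E2 G9Gl* (1.16), and *Eif2s1*, which encodes the subunit that PKR phosphorylates, lower in *6KO1* (-1.02). The WT libraries of *Eif2s1* spread from 232 to 374 CPM, against 125 to 146 in *6KO1*. Whether its call, just past the 2-fold minimum, holds with a WT library left out was not tested. The list's medians were -0.43 in *6KO1* and -0.42 in *E1E2 G9Gl*. *Dhx9* (-0.66 in *6KO1*) was not called. Of 6 genes of the ZBP1 death pathway, *Ripk3*, the kinase that links ZBP1 to necroptosis, had at most 3 counts in any library and was not tested. *Mlkl*, the executor of necroptosis, rose in *E1E2* (1.45), *E1E2 G9Gl* (1.26), *6KO2* (1.11) and *E2* (1.04) and was at 0.72 in *6KO1*. It was the 1 gene of the 5 tested that was called in *E1E2* (5.51% of all genes called higher), *E1E2 G9Gl* (16.8%), *6KO2* (15.3%) and *E2* (2.9%). In *E1E2 G9Gl* and *6KO2*, 1 of 5 is near the share of all genes. *Cflar* and *Ripk1* were not called in these lines.

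Type I interferon RNA was at or near the detection limit. *Ifnb1* had 0 counts in all WT, *E1*, *E2* and *E1 S1S2* libraries, 2 to 7 in *6KO1*, 1 to 4 in *6KO2*, 2 to 3 in *E1E2* and 1 to 2 in *E1E2 G9Gl*. The 4 *Ifna* genes listed had at most 2 counts in any library. A count of 0 allows up to 0.0953 to 0.154 CPM, depending on the library (3 counts, counting error only). These limits are relative to the library's total on genes without TMM scaling, unlike the sensor levels. Of the 10 tested genes of the interferon and receptor pathway, *Irf9* (2.71 in *6KO1*), *Stat2* (1.89) and *Usp18* (8.51) rose, while *Ifnar1* (-0.13) and *Jak1* (0.28) were not called. Of 31 interferon-stimulated genes tested, which include 6 of the sensors, 30 were called higher in *6KO1*, 29 in *E1E2*, 26 in *E1E2 G9Gl*, 25 in *E1 S1S2*, 22 in *6KO2*, 12 in *E2* and 8 in *E1*, and 0 lower in any. *Oas3*, a synthetase that double-stranded RNA activates, was at 10.14 in *6KO1* and 10.50 in *E1E2 G9Gl*. In WT *Oas3* was at 0.0421 to 0.119 CPM and *Usp18* at 0.0842 to 0.288, so the sizes of their fold changes are poorly determined. Of 10 other nucleic acid sensors tested, 5 were called higher in *6KO1* (20.6% of all genes) and 5 in *6KO2* (15.3% of all genes), with none lower by edgeR. In *E1E2 G9Gl* 4 were called higher and 1 lower (16.8% and 8.41% of all genes), and in *E1E2* 3 and 1 (5.51% and 3.22%). In both *E1 S1S2* (6.65% and 5.11%) and *E2* (2.9% and 3.21%), 1 was called higher and 1 lower, and in *E1* 1 was called higher (2.27%). *Aim2*, a sensor of cytosolic DNA, was the gene lower in *E1 S1S2* (-2.72), *E2* (-4.32) and *E1E2* (-4.18), and it was called higher in *6KO1* (3.40), *E1E2 G9Gl* (2.96) and *6KO2* (2.58). *Tlr3*, the endosomal receptor of double-stranded RNA, rose by 2.93 in *6KO1* and 3.69 in *E1E2 G9Gl*, and *Tlr7*, a receptor of single-stranded RNA, by 4.30 and 5.75. *Mb21d1*, the DNA sensor cGAS, was at 0.26 in *6KO1* and -0.27 in *E1E2 G9Gl*.

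Marker lists of other cell types also moved. Of 8 macrophage and leukocyte markers, 5 were tested, and their list summed to 6.18 to 6.77 CPM in WT, 26.6 to 28.5 in *6KO1*, 25.7 to 27.3 in *E1E2 G9Gl* and 8.94 to 10.05 in *6KO2*. The number called higher was 4 of 5 in *6KO1* (20.6% of all genes), 3 in *E1E2 G9Gl* (16.8%) and 3 in *6KO2* (15.3%). It was 2 in *E1* (2.27%), 1 in *E1 S1S2* (6.65%), 1 in *E1E2* (5.51%) and 0 in *E2* (2.9%) by edgeR. The list summed to 8.62 to 9.71 CPM in *E1 S1S2* and 7.48 to 9.59 in *E1E2*, above WT, and to 6.04 to 6.06 in *E1* and 4.85 to 5.87 in *E2*, below WT. *Itgam*, an integrin subunit, reached 469 counts. It was at 19.6 to 20.5 CPM in *E1E2 G9Gl* and at 2.28 to 2.604 in *6KO1*. *Cd68* was at 18.4 to 20.8 CPM in *6KO1* and at 2.86 to 4.004 in *E1E2 G9Gl*, against 3.498 to 4.12 in WT. The similar list sums of *6KO1* and *E1E2 G9Gl* thus came mostly from different genes. The macrophage gene *Adgre1* had 0 counts in all libraries and *Tyrobp* at most 1. *Csf1r* reached 10 counts and *Ptprc* 42. The 5 endothelial markers summed to 0.515 to 0.613 CPM in WT, 7.39 to 8.96 in *6KO1*, 4.66 to 6.50 in *6KO2* and 2.86 to 3.74 in *E1E2 G9Gl*. Their sum was 1.70 to 2.10 CPM in *E1 S1S2*, 1.08 to 1.40 in *E1*, 0.895 to 1.31 in *E1E2* and 0.354 to 0.564 in *E2*. Of these 5, all were called higher in *6KO2* (15.3% of all genes), 4 in *6KO1* (20.6%), where *Kdr* was at 0.03, 2 in *E1E2 G9Gl* (16.8%) and 2 in *E1 S1S2* (6.65%). The 6 epithelial markers, 3 of them tested, summed to 1.30 to 1.98 CPM in WT and were above that range in all mutants, at 25.9 to 27.4 in *6KO1*, 23.2 to 24.5 in *6KO2*, 12.1 to 12.9 in *E1E2 G9Gl*, 10.2 to 12.5 in *E1 S1S2*, 8.64 to 11.2 in *E2*, 5.02 to 7.26 in *E1E2* and 5.22 to 6.60 in *E1*. Of the 3 tested, 2 were called higher and 1 lower in *6KO1* (20.6% and 10.2% of all genes), *6KO2* (15.3% and 5.39%) and *E1E2 G9Gl* (16.8% and 8.41%). *Krt8* (4.07 in *6KO1*) and *Krt14* (8.29) were higher there and *Epcam* lower (-2.76 in *6KO1*, -2.50 in *6KO2* and -2.71 in *E1E2 G9Gl*). In *E1E2* 2 were called higher (5.51%), *Krt8* (2.38) and *Krt14* (3.02). In *E1 S1S2* (6.65% and 5.11%) and *E2* (2.9% and 3.21%), *Krt8* (3.41 and 3.24) was called higher and *Epcam* (-1.63 and -2.07) lower. In *E1* *Krt8* (2.40) was called higher (2.27%). *Krt14* was at 0 to 0.0842 CPM in WT, so the sizes of its fold changes are poorly determined. The part of these marker genes in the sensor levels was not tested.

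The genes most like each sensor were named by Pearson's r of log2 CPM over the 24 libraries, among 18564 genes, as a description of libraries that share lines and conditions. *Ddx58* was most like the interferon-inducible GTPase genes *Igtp* (r = 0.995) and *Irgm2* (r = 0.993), and *Slfn8* (r = 0.986). *Ifih1* was most like *S1pr1* (r = 0.974), *Apol9a* (r = 0.973) and *Ifi204* (r = 0.971). *Eif2ak2* was most like *Rtp4* (r = 0.970), *Irf9* (r = 0.959) and *Mx2* (r = 0.955), and *Trim25* like *Mx2* (r = 0.947), *Parp14* (r = 0.946) and *Helz2* (r = 0.940). *Zbp1* was most like *Dcxr* (r = 0.967), the cell cycle inhibitor gene *Cdkn1a* (r = 0.949) and *Wdr35* (r = 0.944). For *Dhx58* the highest r was 0.824, with *Ogfr*, and for *Mavs* 0.911, with *Eps8l2*. Among the sensors, r was 0.941 between *Ddx58* and *Eif2ak2*, 0.915 between *Ddx58* and *Ifih1*, 0.535 between *Ifih1* and *Zbp1*, and -0.191 between *Ddx58* and *Mavs*.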

How the data were processed

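Total RNA libraries were sequenced from both ends. The authors trimmed reads with cutadapt 1.8.1, aligned them to GRCm38 with STAR 2.5.2b and counted genes and repeat elements with TEtranscripts, and deposited whole-number counts without normalization. Reads that fall in several places are shared among copies of a repeat, so repeat counts carry that error. All 24 columns were matched to samples by title (0 unmatched), and 1 malformed entry, under 0.003% of counts in every library, was left out. CPM were taken over the scaled total on genes, except for the limits given for a count of 0, which used the unscaled total. Counts were filtered with filterByExpr, scaled with TMM and tested with edgeR 4.0.16 (R 4.3.3) in 1 quasi-likelihood fit over 24 libraries, two-sided, with Benjamini-Hochberg adjustment over 18565 genes. This made 13 comparisons and 2 interaction tests. Calls needed a 2-fold difference either way and an adjusted p no larger than 0.01. An exact permutation test of 3 against 3 cannot go below p = 0.1, so p-values rest on the spread shared across genes. Positions and exon lengths come from GENCODE M21.

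The members and gene lists were chosen with earlier results of these data known. Of each list, up to 4 genes called in *E1E2 G9Gl*, *6KO1* or *6KO2* with the largest change and up to 2 highly expressed genes not called were named, and genes outside this rule (such as *Ripk3*, *Ifnb1* and single markers) were chosen after their values were seen. Some genes that the rule names are not reported here. The 3 genes with the highest r were taken per sensor. Simulated counts for *6KO1* against WT over 18565 genes gave calls for 80 of 100 genes changed 4-fold and 37 of 100 changed 2-fold, which sits on the fold minimum, and 0 unchanged genes. Of the 4-fold genes, 77 of 77 with a mean of at least 20 counts were called and 3 of 23 below, a level at which *Zbp1* lies in WT, *E1* and *E1E2 G9Gl*. Alternatives were DESeq2 1.42.0, RLE factors, factors from genes and repeats together, no filter, a mean normalized count above 100, the 2 conditions alone, a replicate block, no fold minimum and each library left out. Figures were drawn with matplotlib 3.10.9.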

Additional observations from a re-analysis of the deposited data

Results flagged for a closer look

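For 5 of the 7 genes, the effect of adding the *Suv39h1* and *Suv39h2* mutations differed between the *E1E2 G9Gl* and *E1* backgrounds by an interaction test in edgeR with an adjusted p of at most 0.01. By the same threshold 18.7% of all genes differed in the lower direction, as these 5 did, and 20.5% in the higher. The difference was -1.82 for *Ddx58*, -1.62 for *Ifih1*, -1.04 for *Eif2ak2*, -0.71 for *Dhx58* and -0.66 for *Trim25* (log2 scale). The 2 backgrounds are 2 series of clones, so genotype and clone cannot be told apart. Groups of 3 libraries were not tested for single outlying samples.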

How the results depend on the processing

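Each genotype is 1 clone with 3 libraries, and low counts limit *Zbp1* and *Dhx58* most. The replicate block changed none of the 30 counts of called sensors, and with it 5 sensors were called higher in *6KO1* against WT and 1 in *E2* against WT. Same-numbered libraries did not deviate together (correlations from -0.291 to 0.24), so the numbers were not taken as a pairing. The fit on 2 conditions changed no count by over 1.5 times, but *Zbp1* in *E2* (1.75, edgeR adjusted p = 0.0194) was no longer called and *Ddx58* (1.02, edgeR adjusted p = 0.00663) was called in its place. In *E2* against WT, RLE factors, joint factors and DESeq2 each called 2 sensors higher in place of 1, *Ddx58* being at 1.00. With no fold minimum, the sensors called higher numbered 6 in *E1 S1S2* (19.9% of all genes), 4 in *E2* (12.5%), 5 in *E1E2 G9Gl* (30.9%) and 5 in *6KO2* (29.5%) against WT, and 1 (*Mavs*) was lower in each of *E1E2 G9Gl* (28.3%) and *6KO2* (25%). With no fold minimum, 6 were higher in *E1E2* against *E2* (6.58%), 4 in *E1 S1S2* against *E1* (16.1%), 5 in *6KO1* against *E1 S1S2* (30.4%) and 7 in *6KO1* against *6KO2* (25%). Then 2 were higher (28.7%) and 2 lower (24.7%) in *E1E2 G9Gl* against *E1E2*, 4 lower in *6KO2* against *E1E2 G9Gl* (22.3%), and 5 lower in the *Suv39h* interaction (18.7%). A mean count above 100 removed *Zbp1*, which left 1 higher in *E1E2* against *E2*, 0 in *E1 S1S2* against *E1*, 0 lower in *E1E2 G9Gl* against *E1E2* and 0 higher in *6KO2* against *E1E2 G9Gl*. No filter called 1 (*Zbp1*) higher in the 4-OHT interaction. With 1 library left out, the count higher was 1 to 2 in *E2* against WT, 2 to 4 in *E1E2* against *E2*, 2 to 4 in *6KO1* against *6KO2* and 0 to 1 in the 4-OHT interaction. The count lower was 1 to 2 in *6KO2* against *E1E2 G9Gl* and 2 to 4 in the *Suv39h* interaction. *Dhx58* was called in *6KO1* against *6KO2* without *6KO2* replicate 3 (1.12).

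Values near 0 changed sign. *Mavs* in *E1* against WT was 0.0016 (RLE), 0.0028 (no filter), 0.0065 (mean above 100), 0.0095 (2 conditions) and 0.0023 (DESeq2), and -0.079 to 0.04 with 1 library left out. *Mavs* in *6KO1* against *E1 S1S2* was 0.017 with a mean above 100. With 1 library left out, *Dhx58* in *6KO2* against WT ranged from -0.34 to 0.095, and in the 4-OHT interaction *Ifih1* ranged from -0.028 to 0.089 and *Mavs* from -0.092 to 0.028. The causes were not tested. None of these values was called by edgeR.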
